A study of Mus musculus with 13 samples.

Results

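Actin-binding, myosin and mechanosensitive Ccn genes were followed across 13 two-colour array hybridisations of mouse RNA. The set held 10 genes: Cnn2, Cnn3, Tpm2, Myh9, Actn1, Vcl, Tln1, Flna, Ccn1 and Ccn2. It was defined by name, with earlier results of these data known. Every probe whose annotation gave 1 of these symbols and no other was used, which left 15 probes of the 20205 in the table. Cnn2, Cnn3, Myh9, Vcl, Tln1 and Ccn2 had a single probe each, Actn1, Flna and Ccn1 had 2 each, and Tpm2 had 3. The genes with a single-symbol probe numbered 9669 in all.

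Each array set RNA of a source named NT1 against RNA of a source named TBV. The series title places a Sall4 -/- genotype, the loss of both copies of a zinc finger transcription factor gene, beside NT1. The labels give no genotype, agent or cell type for TBV, and they do not say how many clones stand behind either name. A line of mouse embryonic stem cells is known under the name TBV2. The sources were NT1p14 against TBVp13 on 5 arrays, NT1p12 against TBVp12 on 4, NT1 1 against TBV2 on 2, and NT1p12 against TBVp13 on 2. The number after p is read here as a passage. Of the arrays 7 carried NT1 in the Cy5 channel, and 6 carried TBV there.

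Values are log2 ratios, turned so that a value above 0 means more signal in NT1 than in TBV. The labels do not state which dye was the numerator. Cy5 over Cy3 was assumed, so the direction of all signs together is not settled, while the sizes of the values and of the differences between pairs do not depend on it. A pair value is the mean of both dye orientations. From 14314 to 18381 probes had a value per array. Between 2.40% and 40.4% of an array's values were whole numbers that had lost their decimals, most of all in NT1p12 with TBVp13, so a printed 0, 1 or 2 there stands for a range of ratios. Among the members 35 of 185 values were whole. The Sall4 probe had pair values of 0.07, -0.59, -0.32 and -0.22 in the order of pairs above and lay between -0.82 and 0.39 on single arrays. Its position relative to the deletion is unknown, and it therefore gives no check of the genotype. Embryonic stem cell markers were measured for 15 of 22 listed genes, Pou5f1 and Zfp42 among them, but a ratio does not show that a gene is present, so the cell type was not checked.

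Non-muscle cells pull on their surroundings with filaments of actin and myosin, which end at adhesion sites where talin and vinculin couple them to integrins. When tension is high, the coactivators YAP and TAZ enter the nucleus and bind TEAD factors at genes such as Ccn1 and Ccn2, and free actin monomers fall, which lets MRTF join SRF at CArG boxes of many cytoskeleton genes. In cultures of embryonic stem cells such genes are typically low in compact undifferentiated colonies and high in spread, differentiating cells and in the fibroblasts used as feeders. In RNA from a whole culture, a change in the share of such cells and a change in expression per cell cannot be told apart.

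Cnn3, Myh9, Ccn1, Ccn2, the second Actn1 probe and the first Flna probe had wide spreads between pairs. The first 4 of these genes had pair values of 0.92 or more in NT1p14 with TBVp13 on at least 1 probe and of 0.50 to 1 in NT1p12 with TBVp13 on that probe. In NT1p12 with TBVp12 they ran from -0.28 to 0.52, and in NT1 1 with TBV2 from -0.62 to 0.07, on the same probes. Tpm2, Vcl, Tln1 and the first Actn1 probe stayed between -0.39 and 0.30 in every pair. The second Actn1 probe ran from 1.05 in NT1p14 with TBVp13 to -0.19 in NT1p12 with TBVp12, with 0 in NT1p12 with TBVp13. The first Flna probe ran from 0.55 in NT1p14 with TBVp13 to -0.50 in NT1 1 with TBV2. The plot of all array values shows these probes.

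**Figure D1:**
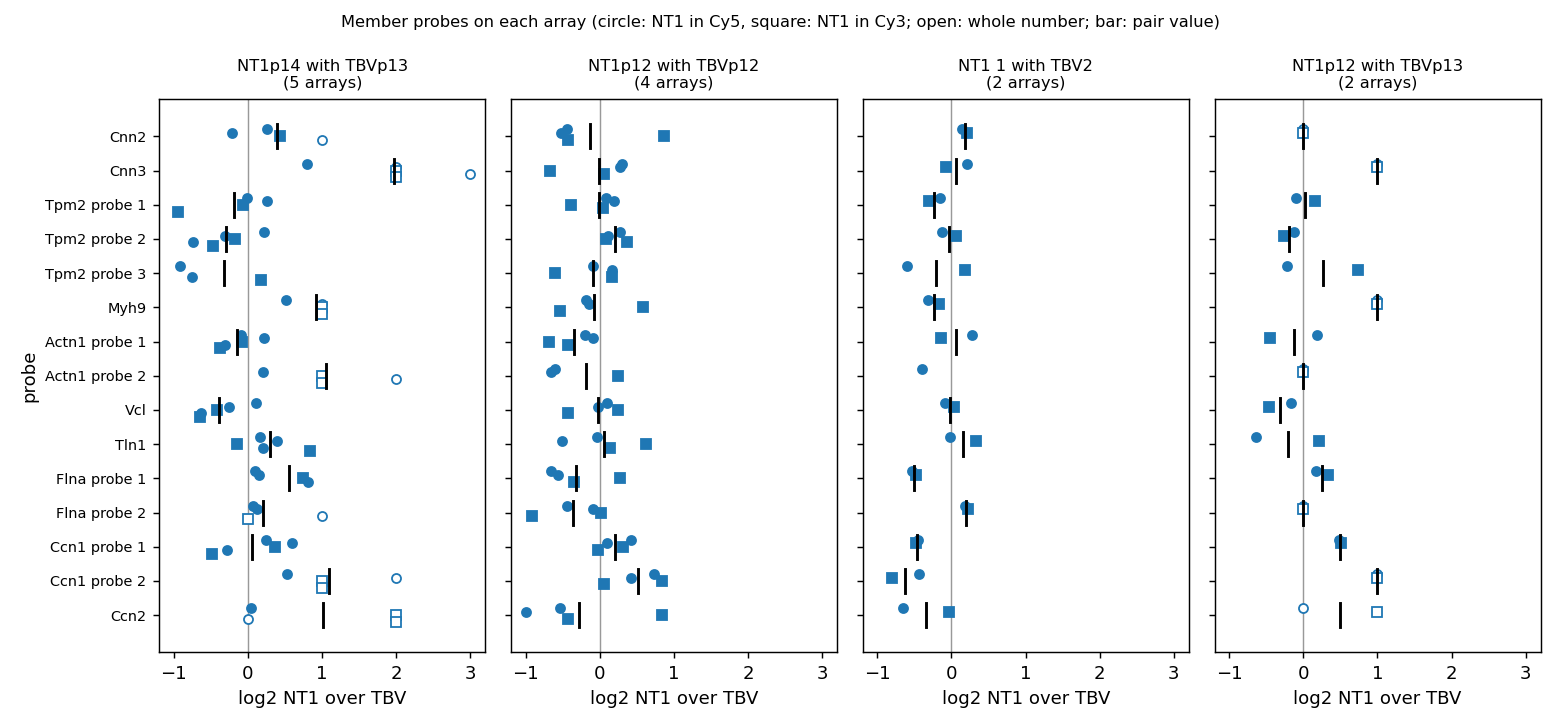
Log2 ratio of NT1 over TBV (horizontal axis) for the 15 member probes (vertical axis) on every array, in 1 panel per source pair; circles have NT1 in Cy5, squares NT1 in Cy3, open symbols are whole numbers, and the black bar is the pair value. Cnn3 lies between 0.80 and 3 on the 5 arrays of NT1p14 with TBVp13 and at 1 on both arrays of NT1p12 with TBVp13, against -0.66 to 0.29 on the 4 arrays of NT1p12 with TBVp12.

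The calponins bind actin filaments and restrain the myosin motor. Calponin 3, encoded by Cnn3, is the form found widely outside smooth muscle. Cnn3 read 0.80, 2, 2, 3 and 2 on the 5 arrays of NT1p14 with TBVp13. On the 4 arrays of NT1p12 with TBVp12 it read 0.29, 0.27, -0.66 and 0.06. All arrays of the first pair therefore lay above all arrays of the second, although 4 of the 5 values were whole numbers. The share of all probes that separate in this way is not given here. In NT1 1 with TBV2 it read 0.21 and -0.07, about level. On both arrays of NT1p12 with TBVp13 it read 1. The mean over the 3 independent pairs was 0.67 ± 1.12 (SD, n = 3), less than the spread between them (limma, adjusted p = 1.00). Cnn2, the related calponin of non-muscle and smooth muscle cells, had pair values of 0.39, -0.13 and 0.18 in the independent pairs and of 0 in NT1p12 with TBVp13. Its mean was 0.15 ± 0.26 (SD, n = 3). Its arrays overlapped between pairs, from -0.22 to 1 in NT1p14 with TBVp13 and from -0.52 to 0.87 in NT1p12 with TBVp12.

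Myh9 encodes the heavy chain of non-muscle myosin IIA, the motor that contracts actin bundles. It read 0.51 on array 1 and 1 on the other 4 arrays of NT1p14 with TBVp13. It read -0.19, -0.15, 0.59 and -0.54 on those of NT1p12 with TBVp12, so that the third array of that pair came above the lowest of the other. In NT1 1 with TBV2 both arrays were below 0, at -0.31 and -0.16. Both arrays of NT1p12 with TBVp13 read 1. Over the 3 independent pairs the mean was 0.20 ± 0.63 (SD, n = 3; limma, adjusted p = 1.00).

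Ccn1 and Ccn2 encode secreted matricellular proteins and are the readouts of YAP and TEAD activity used most often. Ccn1 differed in sign between pairs. Its second probe read 0.53, 2, 1, 1 and 1 in NT1p14 with TBVp13, and 0.73, 0.43, 0.84 and 0.06 in NT1p12 with TBVp12. It read 1 on both arrays of NT1p12 with TBVp13. In NT1 1 with TBV2 it read -0.44 and -0.81. Both arrays of that pair were thus below each of the other 11, all of which were above 0. How many of all probes do the same is not given here. The first Ccn1 probe, with decimals on every array, read 0.48 and 0.50 in NT1p12 with TBVp13 and -0.45 and -0.48 in NT1 1 with TBV2. It was above 0 on 3 of 4 arrays of NT1p12 with TBVp12 (0.42, 0.10, 0.32 and -0.02). In NT1p14 with TBVp13, however, it was mixed, at 0.25, 0.60, 0.36, -0.29 and -0.49, against values of 0.53 or more for the second probe, so the probes disagree in that pair. The pair means of the probes were 0.06 and 1.09 there. The difference of Ccn1 between NT1 1 with TBV2 and the other pairs was not tested. Over the independent pairs the means were -0.07 ± 0.35 and 0.33 ± 0.87 (SD, n = 3 each; limma, adjusted p = 1.00 for both).

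Ccn2 depended on the dyes. In NT1p14 with TBVp13 it read 0.04 and 0 with NT1 in Cy5 and 2 and 2 with TBV in Cy5, and 1 array had no value. The pair value of 1.01 is the mean of these orientations. With NT1 in Cy5 it read -0.53 and -0.996 in NT1p12 with TBVp12, and with TBV in Cy5 0.84 and -0.42. NT1 1 with TBV2 gave -0.65 and -0.04, and NT1p12 with TBVp13 gave 0 and 1, the value with TBV in Cy5 being the higher in both. Over the 3 pairs the mean was 0.13 ± 0.76 (SD, n = 3; limma, adjusted p = 1.00). With NT1 in Cy5 alone it was -0.46, on the other side of 0.

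Filamin A, encoded by Flna, crosslinks actin filaments into networks and links them to integrins. Its first probe read 0.10, 0.15, 0.74 and 0.82 in NT1p14 with TBVp13 and -0.65, -0.56, 0.28 and -0.35 in NT1p12 with TBVp12. All 4 measured arrays of the first pair were above 0 and 3 of 4 of the second below it. In NT1 1 with TBV2 it read -0.54 and -0.47, and in NT1p12 with TBVp13 0.17 and 0.34. The second Flna probe read 0.07, 0.12, 1 and 0 in NT1p14 with TBVp13 and -0.43, -0.09, 0.02 and -0.91 in NT1p12 with TBVp12. It was on the other side of 0 from the first probe in NT1 1 with TBV2, at 0.18 and 0.22, so the level of Flna in that pair is uncertain. The means over the 3 pairs were -0.09 ± 0.56 and 0.01 ± 0.32 (SD, n = 3 each).

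Actn1 encodes alpha-actinin 1, which bundles actin filaments at adhesions. Its 2 probes did not give the same picture. The first was below 0 on 4 of 5 arrays of NT1p14 with TBVp13 and on 4 of 4 of NT1p12 with TBVp12, with pair values of -0.15 and -0.35. The second read 0.21, 1, 2 and 1 in NT1p14 with TBVp13 and -0.60, -0.65 and 0.24 in NT1p12 with TBVp12. It had no value in 1 orientation of NT1 1 with TBV2 and was left out of the fit on 3 pairs. The gene-level direction of Actn1 is therefore uncertain.

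Vinculin (Vcl) and talin 1 (Tln1) sit at the membrane end of the filaments, and talin activates integrins directly. Vcl read 0.11, -0.25, -0.42, -0.63 and -0.64 in NT1p14 with TBVp13, below 0 on 4 of 5 arrays. In NT1p12 with TBVp12 it read 0.10, -0.02, 0.25 and -0.43, around 0. It was at -0.02 in NT1 1 with TBV2 and at -0.31 in NT1p12 with TBVp13, and its mean was -0.15 ± 0.21 (SD, n = 3). Tln1 had pair values of 0.30, 0.06 and 0.15 in the independent pairs and of -0.21 in NT1p12 with TBVp13. The dye orientations of the latter pair differed, at -0.63 and 0.21. The mean of Tln1 was 0.17 ± 0.12 (SD, n = 3; limma, adjusted p = 1.00).

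Tropomyosin 2, encoded by Tpm2, lies along the actin filament and is a muscle form that fibroblasts also make. Its 3 probes were all below 0 in NT1p14 with TBVp13, at -0.19, -0.30 and -0.33, and in NT1 1 with TBV2, at -0.23, -0.03 and -0.21. In NT1p12 with TBVp12 they were at -0.01, 0.21 and -0.09. The means over the 3 pairs were -0.15 ± 0.12, -0.04 ± 0.25 and -0.21 ± 0.12 (SD, n = 3 each). Of the 3, the second alone was on 1 side of 0 on all arrays of a pair with 4 arrays, at 0.08 to 0.36 in NT1p12 with TBVp12.

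**Figure D2:**
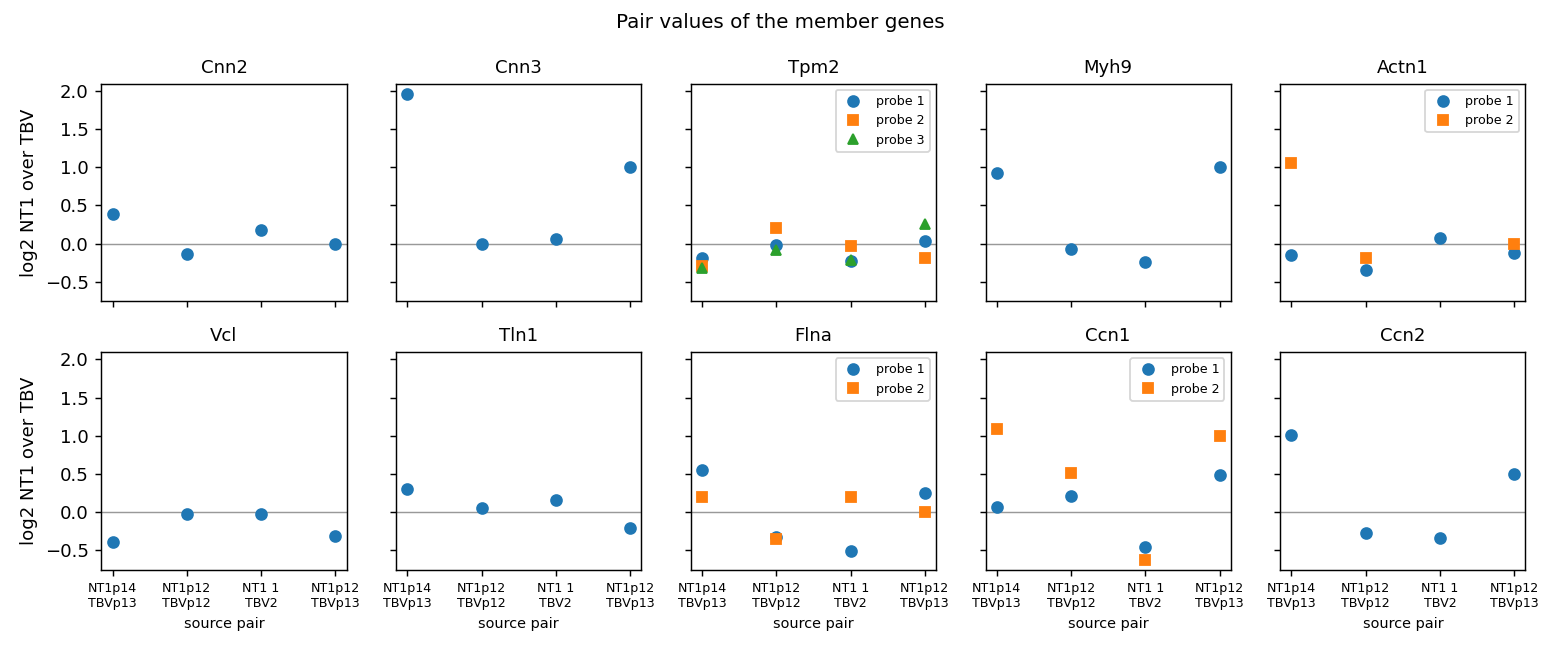
Pair values (log2 NT1 over TBV, vertical axis) of the 10 genes in the 4 source pairs (horizontal axis), 1 panel per gene and 1 symbol per probe. Myh9 stands at 0.92 and 1 in the pairs with TBVp13 and at -0.07 and -0.24 in the others, while Tpm2 and Vcl stay between -0.39 and 0.26.

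The first comparison asked whether NT1 differed from TBV over the independent pairs. None of the 14 member probes with a value in all 3 pairs passed an adjusted p of 0.05, where 0% of 15973 probes did (limma, 0 probes), and 0 members and 164 probes had an unadjusted p under 0.05. Of the 14 means 7 were above 0, and their median was -0.01. The p-values describe the spread between preparations, since nothing in the labels says that they came from separate clones.

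The second comparison asked whether NT1p14 with TBVp13 differed from NT1p12 with TBVp12 beyond the noise between arrays. Cnn3 was higher in the former by 1.95 ± 0.41 on the log2 scale (SE, 9 arrays; limma, adjusted p = 0.043) and Myh9 by 0.99 ± 0.23 (SE, 9 arrays; limma, adjusted p = 0.047). These were 2 of the 15 member probes, both upward. Of all 16317 probes 8.65% passed in either direction and 4.58% upward. Flna probe 1 at 0.90 ± 0.23 and Ccn2 at 1.29 ± 0.33 did not pass (SE; limma, adjusted p = 0.054 for both). Flna probe 1, which kept its decimals on all arrays that measured it, passed in 4 of 14 alternatives. Its adjusted p (limma) was 0.012 among probes without a whole number. Of 19859 values of size 1 or more 79 kept decimals, so that subset leaves out nearly all probes with such a value. The adjusted p of Flna probe 1 was 0.042 with scaled arrays, 0.046 without array 1 of NT1p14 with TBVp13 and 0.047 without array 3 of NT1p12 with TBVp12. It ran up to 0.66 with ribosomal centring. Actn1 probe 2 did not pass, at 1.34 ± 0.46 (SE; limma, adjusted p = 0.092). A difference larger than that of Cnn3 was found in 2.07% of all probes and one larger than that of Myh9 in 11.3%. Of the 15 member differences 10 were above 0 with a median of 0.57, against 49.6% of all probes and a median of 0.00. Because the members were chosen with earlier results of these data known, this contrast is no test of the set. The arrays of a pair share their source names, and the labels do not say whether their RNA came from separate cultures or extractions. The p-values therefore measure the spread between arrays, which may be technical, and passage and source pair cannot be told apart. For Cnn3 and Myh9 most values in NT1p14 with TBVp13 were whole numbers, so lost decimals enter that spread and their adjusted p. The SD of Myh9 over arrays was 0.22 in that pair and 0.47 in NT1p12 with TBVp12.

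Both calls lie close to the threshold. Leaving out an array of NT1p14 with TBVp13 moved the adjusted p of Cnn3 to 0.080 (array 2), 0.054 (array 4) and 0.084 (array 5), and that of Myh9 to 0.084, 0.071 and 0.089. Leaving out an array of NT1p12 with TBVp12 moved that of Cnn3 to 0.12 (array 1), 0.13 (array 2), 0.053 (array 3) and 0.13 (array 4), and that of Myh9 to 0.12, 0.14 and 0.13 without arrays 1, 2 and 4. The sizes moved less, from 1.71 to 2.26 for Cnn3 and from 0.79 to 1.20 for Myh9. Relative to the ribosomal protein genes, which differed by 0.94 in the median between these pairs, Cnn3 was higher by 1.05 (limma, adjusted p = 0.050, just above the threshold) and Myh9 by 0.10 (limma, adjusted p = 0.81). The ribosomal medians were 0, 0.16, 0, 1 and 1 on the arrays of NT1p14 with TBVp13. They were -0.64, -0.56, 0 and -0.58 on those of NT1p12 with TBVp12, so values that had lost their decimals enter this reference. With that centring the median of all probes moved to -0.91, and of 7495 probes past the threshold 2.19% were higher, against 52.9% of 1411 with centring on the array medians. Member probes then passed downward and not upward: Tpm2 probe 2 at -1.40, Tpm2 probe 3 at -1.54 and Vcl at -1.26 (limma, adjusted p = 0.029, 0.028 and 0.029). With whole numbers read as cut towards 0, an alternative chosen after seeing the data, neither passed. The adjusted p was then 0.062 for Cnn3 and 0.058 for Myh9 (limma). Over all alternatives the adjusted p of Cnn3 ran from 0.016 to 0.13 and that of Myh9 from 0.032 to 0.81.

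**Figure D3:**
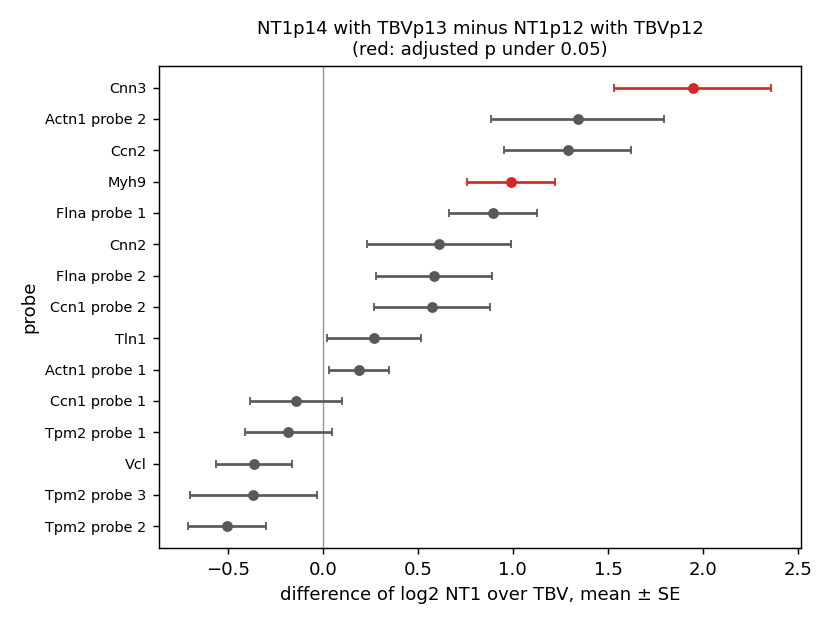
NT1p14 with TBVp13 minus NT1p12 with TBVp12, as a difference of log2 NT1 over TBV (horizontal axis, mean ± SE over 9 arrays) for the 15 member probes (vertical axis, in order of size), with an adjusted p under 0.05 in red. Cnn3 at 1.95 and Myh9 at 0.99 are red, and the 3 Tpm2 probes and Vcl lie below 0, from -0.50 to -0.18.

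NT1p12 with TBVp13 was not part of either comparison, and it shares TBVp13 with 1 of those pairs and NT1p12 with the other. Cnn3, Myh9 and the second Ccn1 probe read 1 on both of its arrays, in both dye orientations. These are 3 of 15 member probes at 1 or more on both arrays, against 47 of 15991 probes in all, or 0.294%. None of the members read -1 or less on both arrays, as 29 of all probes did. The step of 1 was chosen after the values were seen, and the members with earlier results of these data known. Their share beside that of all probes is therefore no test of the set.

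Through the shared sources each member's pair values can be split in parts, with 1 source per step and no test. For Myh9 TBVp12 exceeded TBVp13 by 1.07, while the step between NT1p14 and NT1p12 was -0.08. Most arrays of NT1p14 with TBVp13 also read the whole number 1 for Myh9, so this small step does not show that NT1p14 and NT1p12 were level. For Cnn3 the steps were 1.01 between TBVp12 and TBVp13 and 0.97 between NT1p14 and NT1p12. For the second Ccn1 probe they were 0.48 and 0.09, and for Ccn2 0.78 and 0.51. The first Ccn1 probe, with decimals on every array, was at 0.29 and -0.43, so the Ccn1 probes disagree on the NT1 step. Flna stood at 0.57 and 0.30 on its first probe and at 0.36 and 0.20 on its second. Cnn2 was at 0.13 and 0.39, and the Actn1 probes at 0.22 and -0.02 and at 0.19 and 1.05. Vcl went the other way on both steps, at -0.28 and -0.08. Every step uses NT1p12 with TBVp13. The values of Cnn2, Cnn3, Myh9, Ccn2 and the second Ccn1, Actn1 and Flna probes were whole numbers there.

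Start site sequences were taken from RefSeq for Ccn1, Cnn3 and Myh9, which read 1 on both arrays of NT1p12 with TBVp13, and for both genes with a CArG box. For 9 of the 10 genes, all but Ccn2, there were windows from 250 bases before to 50 after the start. They were searched on both strands for the TEAD motif GGAATG, the CArG box bound by SRF, and the AP-1 motif TGANTCA. Matches overlapping another motif were not found in these genes. The stretches below end before the start, run 5′ to 3′ along the gene's strand, and have matches in capitals.
Ccn1 (GRCm38.p6, chr3:145649986-145650235, minus strand): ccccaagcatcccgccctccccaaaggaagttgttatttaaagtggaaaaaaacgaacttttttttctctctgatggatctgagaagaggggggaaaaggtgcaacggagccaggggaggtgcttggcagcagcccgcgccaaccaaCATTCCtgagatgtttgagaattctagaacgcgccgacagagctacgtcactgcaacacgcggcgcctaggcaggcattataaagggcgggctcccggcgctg
Cnn3 (GRCm38.p6, chr3:121426291-121426540, plus strand): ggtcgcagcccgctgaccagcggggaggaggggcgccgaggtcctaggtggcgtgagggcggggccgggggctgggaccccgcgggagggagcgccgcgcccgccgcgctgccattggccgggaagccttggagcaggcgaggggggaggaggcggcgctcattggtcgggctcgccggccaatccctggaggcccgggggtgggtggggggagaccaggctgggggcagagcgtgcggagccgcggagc
Myh9 (GRCm38.p6, chr15:77842176-77842425, minus strand): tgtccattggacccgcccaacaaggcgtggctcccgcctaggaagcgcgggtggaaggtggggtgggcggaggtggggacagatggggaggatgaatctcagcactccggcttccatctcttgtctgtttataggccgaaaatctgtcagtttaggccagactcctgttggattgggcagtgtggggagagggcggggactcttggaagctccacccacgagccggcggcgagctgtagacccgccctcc
Cnn2 (GRCm38.p6, chr10:79988500-79988599, plus strand): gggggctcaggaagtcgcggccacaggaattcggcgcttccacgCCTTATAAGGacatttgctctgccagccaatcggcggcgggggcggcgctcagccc
Vcl (GRCm38.p6, chr14:20929148-20929297, plus strand): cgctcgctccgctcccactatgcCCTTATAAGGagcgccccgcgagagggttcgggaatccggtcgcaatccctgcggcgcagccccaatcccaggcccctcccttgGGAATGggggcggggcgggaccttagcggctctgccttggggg

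Positions are those of a match's first base, counted from the start site. Ccn1 held a TEAD motif on the opposite strand at -103. Vcl held a TEAD motif at -143 and a CArG box at -227, and Cnn2 a CArG box at -56. The capitals of both CArG boxes spell the same 10 letters. Flna held a TEAD motif on the opposite strand at -146, in a window that is not shown. Cnn3, Myh9, Tpm2, Actn1 and Tln1 had no match to any of the 3 motifs in these windows. So 3 of 9 genes held the TEAD motif and 2 of 9 the CArG box, against 14.7% and 1.63% of all 32851 windows, and 0 of 9 held the AP-1 motif, against 7.81%. Of the genes with a CArG box, Cnn2 had a pair value of 0.39 and Vcl of -0.39 in NT1p14 with TBVp13. These matches describe letters only.

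Other genes of the same machinery were read from lists that leave out the members. Their counts between the 2 pairs stand beside the 8.65% of all probes that passed in either direction and the 4.58% that passed upward, and no probe passed without arrays 2 or 5 of NT1p14 with TBVp13 or without arrays 1, 2 or 4 of NT1p12 with TBVp12. Of 51 listed actomyosin and actin regulators 34 were measured in all 3 pairs. Their medians in the 3 independent pairs, given here and for the next lists in the order of the opening, were 0.10, -0.07 and -0.05, and 0 of 42 probes passed over the 3 pairs. Between the 2 pairs 4 of 43 probes passed, all upward (limma): Acta2 and Actc1, which encode smooth muscle and cardiac actin, Rhoa, the GTPase that switches on contraction, and Ppp1cb, a catalytic subunit of myosin phosphatase. The regulatory light chain gene Myl12a, a partner of Myh9 in the motor, had pair values of 0.41, -0.05 and -0.07, averaged over its probes. The average was 0.53 in NT1p12 with TBVp13. A single probe stood apart from it, at 1.06, -0.16 and -0.05 and at 1 in NT1p12 with TBVp13, so its probes disagreed. Their average difference between the 2 pairs was 0.48, and the smallest adjusted p of any of them was 0.059 (limma). By size of the mean the leading genes were Cttn at 0.34, Cald1 at -0.23, Tagln2 at 0.21 and Myh10 at 0.21.

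Of the 36 focal adhesion and filamin family genes 22 were measured, with medians of -0.04, 0.08 and 0.01. Over the 3 pairs 0 of 31 probes passed. Between the 2 pairs 6 of 32 probes passed upward, 4 of them probes of Itgb1, the integrin beta 1 subunit, and 2 of Enah, an actin elongation factor, while Csrp1 passed downward (limma). Itgb1 had pair values of 0.81, -0.54 and -0.53 and 0.18 in NT1p12 with TBVp13. The largest means were those of Pdlim1 at 0.27, Parva at -0.19, Evl at -0.15 and Enah at -0.14.

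Of 28 other YAP and TEAD target genes 17 were measured, with medians of 0.09, 0.00 and 0.00, and 0 of 20 probes passed between the 2 pairs (limma; median difference -0.01) and neither did any of the 3 probes of Ccn1 and Ccn2. Axl had the largest mean, -0.50, followed by Inhba at -0.44, Amotl1 at 0.32 and Ptpn14 at 0.27. Axl and Inhba were both at -0.999 in NT1 1 with TBV2, a value that had lost its decimals before centring. Of 19 Hippo pathway core genes 10 were measured, with medians of 0.29, -0.13 and 0.01. Mob1a, a cofactor of the LATS kinases, passed between the 2 pairs, as 1 of 13 probes (limma, difference 0.96, adjusted p = 0.043). Of the other Ccn and SRF pathway genes 5 of 13 were measured. Srf itself was at 0.79, -0.10 and 0.10, and Mrtfa, its actin-regulated coactivator, at 0.49, -0.10 and 0.12, and 0 of 6 probes passed.

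Markers of other cell types were read in the same way. Fibroblast markers were measured for 16 of 25 listed genes, and Acta2 is also on the actomyosin list. Their medians were 0.33, -0.27 and -0.45, and 0.02 in NT1p12 with TBVp13. Between the 2 pairs 6 of 23 probes passed, all upward (limma): Acta2, Col1a1, Col1a2, Col3a1, S100a4 and Vim. Vim and Col3a1 were the highest of the list in NT1p12 with TBVp13, at 1, and were at -0.999 and -0.62 in NT1 1 with TBV2. In NT1p12 with TBVp13 Acta2, S100a4 and Thy1 were at 0.5, Col1a1 at 0.25, Mmp2 at 0.14 and Prrx1 at 0.04. Col1a2, Col5a2, Dcn, Fn1 and Twist2 were at 0 there, and Col6a1, Loxl1 and Lox at -0.25, -0.08 and -0.03. In NT1p14 with TBVp13 Dcn, Lox, Twist2 and Thy1 were at -0.45, -0.18, -0.08 and -0.27. Across single arrays the fibroblast median lay between 0 and 0.57 in NT1p14 with TBVp13 and between -0.33 and -0.11 in NT1p12 with TBVp12. Parietal endoderm markers, 7 of 13 measured, had medians of 0.29, 0.00 and 0.12, and 3 of 10 probes passed upward (Col4a1, Lamc1 and Sparc). Smooth muscle markers, 6 of 8 measured, had medians of -0.22, 0.01 and -0.07, and 1 of 6 probes passed, Synpo2, which was lower. Embryonic stem cell markers had medians of -0.06, -0.50 and -0.16, and Lin28a and Nr0b1 passed upward. Ribosomal protein genes, measured for 36 of 44, had medians of 0.42, -0.48 and 0.10. The part of these cell types, or of the ribosomal shift, in the members' values was not tested.

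**Figure D4:**
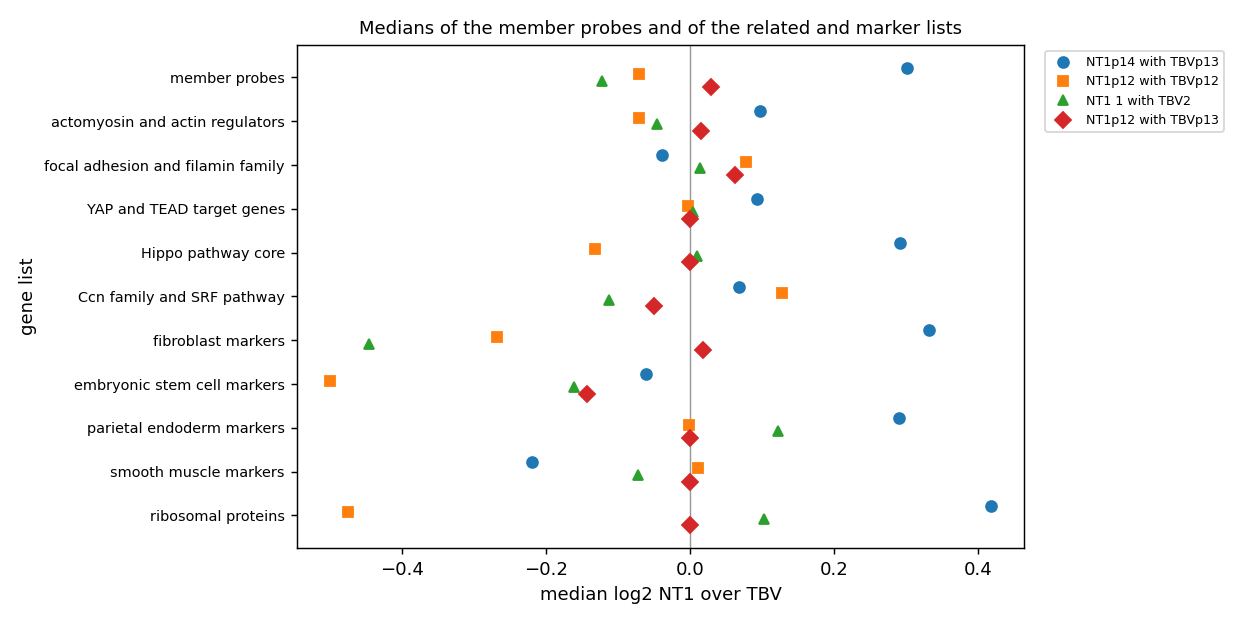
Median log2 NT1 over TBV (horizontal axis) of the member probes and of the genes of each related or marker list, members left out (vertical axis), with 1 symbol per source pair. The member median goes from 0.30 in NT1p14 with TBVp13 to -0.12 in NT1 1 with TBV2, and the fibroblast markers from 0.33 to -0.45 in the same pairs.

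Over the member probes as a set the pair medians were 0.30, -0.07, -0.12 and 0.03, where those of all probes were 0.00, 0.01, 0.00 and 0. Above 0 were 10 of 15 probes in NT1p14 with TBVp13 (50.2% of all probes), 4 of 15 in NT1p12 with TBVp12 (51.8%) and 5 of 14 in NT1 1 with TBV2 (49.7%). In NT1p12 with TBVp13 8 of 15 were above 0 (32.4%), with 3 at exactly 0. On the arrays of that pair 6683 of 18381 and 5567 of 16934 values were exactly 0, which lowers the 32.4%. The members were chosen with earlier results of these data known, so none of these shares tests the set. Among 5760 other genes with a value on every array, the pair values closest to this median profile were those of Cplane1, Gar1, Sel1l, Ubac2 and Ciao2b, with a root mean square difference over the 4 pairs of 0.019 to 0.033. The profile is a median of genes that differ from each other, and no single member was used for the match.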

How the data were processed

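The deposited table held 1 log2 ratio of the channels per probe and array, as far as the values tell. Its numerator, log base and normalisation are not given in the sources used here, and the values deposited by the authors were taken as log2 of Cy5 over Cy3. Arrays were centred on their medians and those with TBV in Cy5 multiplied by -1. The value of a source pair is the mean of its orientation means. NT1p12 with TBVp13 reuses sources of 2 other pairs and was kept apart, which left n = 3.

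Two-sided tests set the 3 pair values against 0, and NT1p14 with TBVp13 was compared with NT1p12 with TBVp12 on 9 arrays with a dye term, both with limma 3.58.1 (lmFit, eBayes; R 4.3.3) and Benjamini-Hochberg adjustment over all probes, at 0.05. A probe needed a value in each orientation of each pair. The number of arrays limits the precision. Probes with equal whole numbers on all arrays have no spread of their own, which limma offsets from 0. Both fits were tested on simulated data. Of 11723 single-symbol probes 11590 matched RefSeq by Entrez ID. Windows and coordinates are those of RefSeq (GRCm38.p6). Figures used matplotlib 3.10.9 in Python 3.11.15.

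Members and lists were chosen with earlier results of these data known. All members were named whatever their values, with up to 4 genes per related list by the largest mean and the 5 genes most like the members' median profile. List genes past the threshold, Myl12a and other single marker genes were added after their values were seen. Alternatives changed centring, scaling, dye term, orientation, the unit of replication and the handling of lost decimals, or left out a pair or an array.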

Additional observations from a re-analysis of the deposited data

Results flagged for a closer look

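Among 28 sets of 4 or 5 member values within a pair, 3 had an array far from the others. By chance about 1 in 20 such sets would, for normally spread values with decimals. In NT1p12 with TBVp12 Cnn2 read 0.87 on array 3, against -0.52 to -0.43 on the others. In NT1p14 with TBVp13 Myh9 read 0.51 on array 1, where it kept its decimals, against the whole number 1 on the others, and the second Flna probe read 1 on array 4, against 0 to 0.12. In NT1p14 with TBVp13 set against NT1p12 with TBVp12 the members that differed past the threshold in limma were Cnn3, by 1.95, and Myh9, by 0.99. Their cause was not tested.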

How the results depend on the processing

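The count of probes past the threshold over the 3 pairs was 0 under every alternative except all 13 arrays with the source pair as a random block, where it was 3 (limma). The count of 1411 between the 2 pairs became 231 with no dye term, 7495 centred on ribosomal protein genes and 2 with whole numbers read as cut towards 0, an alternative chosen after seeing the data. Leaving out single arrays gave 0 to 2864. It was 0 without arrays 2 or 5 of NT1p14 with TBVp13 or arrays 1, 2 or 4 of NT1p12 with TBVp12, 15 without array 4 and 2187 without array 3 of NT1p14 with TBVp13. Without probes that hold a whole number 1928 passed, Flna probe 1 among them, while Cnn3 and Myh9 could not be tested. That subset also leaves out nearly all values of size 1 or more. Cnn3 was past the threshold in 5 of 14 alternatives, and Myh9 and Flna probe 1 in 4 of 14 each.

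No member mean passed the threshold under any alternative, and these changed sign. Ccn1 probe 1 was at 0.074 over 4 pairs and 0.10 with the random block, which put Flna probe 1 at 0.053. With NT1 in Cy5 alone Tpm2 probe 1 was at 0.037, Actn1 probe 1 at 0.024, Tln1 at -0.013 and Ccn2 at -0.46. With TBV in Cy5 alone Tpm2 probe 3 was at 0.050, Flna probe 1 at 0.078 and Flna probe 2 at -0.076. Scaling put Tpm2 probe 2 at 0.0092 and the difference of Ccn1 probe 1 at 0.033. Leaving out a pair gave ranges of -0.17 to 0.086 for Tpm2 probe 2, -0.15 to 0.42 for Myh9, -0.41 to 0.11 for Flna probe 1, -0.079 to 0.20 for Flna probe 2, -0.20 to 0.13 for Ccn1 probe 1, -0.054 to 0.80 for Ccn1 probe 2 and -0.31 to 0.37 for Ccn2. Leaving out an array gave -0.063 to 0.092 for Flna probe 2 and -0.14 to 0.0056 for Ccn1 probe 1, and differences of -0.32 to 0.025 for Tpm2 probe 1 and -0.28 to 0.027 for Ccn1 probe 1. Ribosomal centring turned the differences of Cnn2 to -0.12, Actn1 probe 1 to -0.70, Tln1 to -0.63, Flna probe 2 to -0.51 and Ccn1 probe 2 to -0.32. The cause was not tested. Background and signal were not in the table used here, so dim probes were not filtered.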

Other observations

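The 47 probes at 1 or more on both arrays of NT1p12 with TBVp13 included both probes of Vim (vimentin), Cd44 (a hyaluronan receptor), Col3a1 (a fibrillar collagen), Mmp3 (a matrix protease) and a probe of Myl12a (a myosin light chain). These were picked from the set after their values were seen, and it also held Car2, Pigr, Sftpb, Lrmp, Thg1l and unnamed probes, so they describe no theme of it. In NT1 1 with TBV2 the Vim probes were at -0.999, Cd44 at -0.96, Col3a1 at -0.62, Mmp3 at -0.999 and the Myl12a probe at -0.05. The values of -0.999 are whole numbers moved slightly by the centring of the arrays. In NT1p12 with TBVp12 the Vim probes were at -0.25 and -0.75, Cd44 at -0.75, Col3a1 at -0.45 and the Myl12a probe at -0.16, while Mmp3 was at 1. In NT1p14 with TBVp13 the Vim probes were at 1 and 0.58, Cd44 at 0.58, Col3a1 at 0.93 and the Myl12a probe at 1.06, and Mmp3 had no pair value. Afg3l1, Cops3, Mdh1b and Sftpb were above 0 in all 4 pairs.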
